A study of Mus musculus with 4 samples.

Results

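The proteasome subunit genes were taken as every gene whose symbol is Psma, Psmb, Psmc, Psmd or Psme followed by a digit, without pseudogene names. Of 32285 genes in the deposited tables, 45 names matched. Psmc3ip matched by name, but its protein works in meiotic recombination and is not a subunit, so it was set aside and 44 subunit genes remained. They were sorted by textbook role into 19 genes of the core particle, 20 genes of the regulatory particle and its assembly chaperones, and 5 activator genes.

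The proteasome is the protease that degrades proteins tagged with ubiquitin. Its core particle is a barrel of outer alpha rings, which gate the entrance, and inner beta rings, which hold the proteolytic sites. The regulatory particle caps the barrel. Its lid removes ubiquitin chains and its ATPases unfold the substrate and thread it into the barrel. In neurons, proteasomes turn over synaptic and signalling proteins. In immune cells, inducible beta subunits replace the constitutive catalytic ones and favour peptides for presentation on MHC class I.

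Nuclei came from the basolateral amygdala (BLA), a region that assigns emotional value to sensory cues, of C57BL/6J mice. One group was WT. The other carried the DISC1-N genotype, which the sample labels spell DISC-N and which the labels describe no further; what drives any transgene, and in which cells, was not given in the sources used here. The series asks whether BLA cells of DISC1-N mice are abnormal. All mice of both groups had received tamoxifen by intraperitoneal injection 6 h before collection, and bilateral BLA of 5 mice was pooled per group. Each genotype has 2 libraries, numbered replicate 1 and replicate 2, made with 10x 3' v3 chemistry. Nothing says that the replicates of a genotype hold different mice, so p-values measure the spread between these libraries, which may be technical.

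The 4 libraries held 37840301 to 48439711 UMIs (unique molecular identifiers, 1 per captured transcript) and 25332 nuclei after filtering. The file headers name Cell Ranger 7.0.0 in replicate 1 of either genotype and 6.0.2 in replicate 2, so the replicate number is also a processing batch that each genotype has once. Pairs of libraries shared 5 to 21 barcodes (0.107% to 0.344%). A nucleus was given a class when at least 3 UMIs from at least 2 fixed markers of that class made up at least 75% of its UMIs over all markers. Between 48.6% and 61.9% of the nuclei of a library got no class under this rule. Excitatory neurons numbered 410 to 512 nuclei per library, inhibitory neurons 327 to 936, astrocytes 257 to 921, oligodendrocytes 357 to 755, oligodendrocyte precursors (OPC) 138 to 380 and microglia 130 to 437. No proteasome gene is a marker. In the nuclei called microglia, the 9 microglial markers summed to 5815 to 8259 CPM (the UMIs of the genes over all UMIs of the class in that library, on the usual CPM scale), against 17.7 to 29.0 CPM in excitatory neurons. The 7 excitatory markers summed to 530 to 663 CPM in excitatory neurons and to 160.2 to 353.3 CPM in microglia, so the microglial nuclei were not free of neuronal marker UMIs. Median depth was 8135 to 9268 UMIs per nucleus in excitatory neurons and 986.5 to 1340 in microglia.

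The promoters of 3 genes are shown first because these beta-ring genes were called higher in 5 of 5 comparisons between classes and were lower in DISC1-N within both replicate numbers in 5 of 6 classes, although none was called between genotypes. They are Psmb5 and Psmb6, which carry catalytic sites, and Psmb4, a structural neighbour. In any 1 class, 26.8% to 30.4% of all genes tested were lower within both replicate numbers, and the classes share the same 4 libraries. The share of all genes called higher in 5 of 5 comparisons was not counted, and Psmb1 and Psma4 were so called too. The share of all genes that reach 5 of 6 classes was not counted either, and the regulatory gene Psmc5 reached it too. Each promoter window is the 250 bases before the gene's start, on the gene's strand, 5′ to 3′, from RefSeq on GRCm38.p6. Capitals mark TGACNNNGC, the core of the antioxidant response element that the transcription factors Nfe2l1 and Nfe2l2 bind; Nfe2l1 is the factor known to raise proteasome genes together when proteasome activity falls. The windows are chr14:54617996-54618245 (minus strand) for Psmb5, chr11:70525107-70525356 (plus strand) for Psmb6 and chr3:94886959-94887208 (minus strand) for Psmb4.
Psmb5: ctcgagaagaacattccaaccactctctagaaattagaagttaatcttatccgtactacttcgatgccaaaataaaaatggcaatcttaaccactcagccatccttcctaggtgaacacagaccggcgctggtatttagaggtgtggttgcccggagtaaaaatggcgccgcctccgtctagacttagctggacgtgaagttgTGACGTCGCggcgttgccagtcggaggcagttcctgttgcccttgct
Psmb6: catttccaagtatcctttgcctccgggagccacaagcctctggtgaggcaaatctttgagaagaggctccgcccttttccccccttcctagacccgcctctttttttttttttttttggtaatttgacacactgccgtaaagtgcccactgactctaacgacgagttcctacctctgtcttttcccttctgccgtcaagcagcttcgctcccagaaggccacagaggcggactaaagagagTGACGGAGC
Psmb4: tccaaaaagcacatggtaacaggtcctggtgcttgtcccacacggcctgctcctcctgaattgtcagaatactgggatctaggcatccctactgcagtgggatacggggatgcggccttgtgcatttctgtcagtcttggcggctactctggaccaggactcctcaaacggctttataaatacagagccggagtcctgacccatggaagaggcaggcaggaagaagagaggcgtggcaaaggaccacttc
The match begins 47 bases before the start of Psmb5 and 9 bases before that of Psmb6, and these letters are not in the Psmb4 window on either strand. RefSeq promoters were matched for 37 of the 44 genes. On both strands of these windows, TGACNNNGC occurred in 5 genes (Psmb5, Psmb6, Psmc6, Psmd9 and Psmd12), and in 10.2% of the 32851 windows of all genes. CCAAT, the letters bound by the NF-Y factor, occurred in 14 of the 37 genes and in 33.8% of all windows.

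Of these 6 classes, the proteasome genes together took the smallest part of the RNA in excitatory neurons and the largest in microglia, in every library. Values of the 4 libraries are given throughout in the order WT replicate 1, DISC1-N replicate 1, WT replicate 2, DISC1-N replicate 2, as CPM of the class's summed UMIs. The 44 genes summed to 2028, 2004, 1725 and 1681 CPM in excitatory neurons. The sums were 2295, 2227, 2025 and 1958 CPM in inhibitory neurons, and 2595, 2500, 2282 and 2063 CPM in astrocytes. In oligodendrocytes they were 2673, 2602, 2456 and 2231 CPM, in OPC 2435, 2329, 2143 and 1839 CPM, and in microglia 3562, 3097, 3122 and 2921 CPM. Within each library the order from low to high was excitatory neurons, inhibitory neurons, OPC, astrocytes, oligodendrocytes and microglia, except that OPC lay below inhibitory neurons in DISC1-N replicate 2. Across libraries, the ranges of neighbouring classes in this order overlapped, except that every microglial value lay above every value of the other classes in it. Endothelial nuclei, too few to test, gave 3396, 2813, 3816 and 2486 CPM. Mural nuclei, also too few, gave 3155, 3696, 3657 and 2977 CPM, so both reach above some microglial values. Within a library, microglia were 1.54-fold to 1.81-fold above excitatory neurons.

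**Figure D1:**
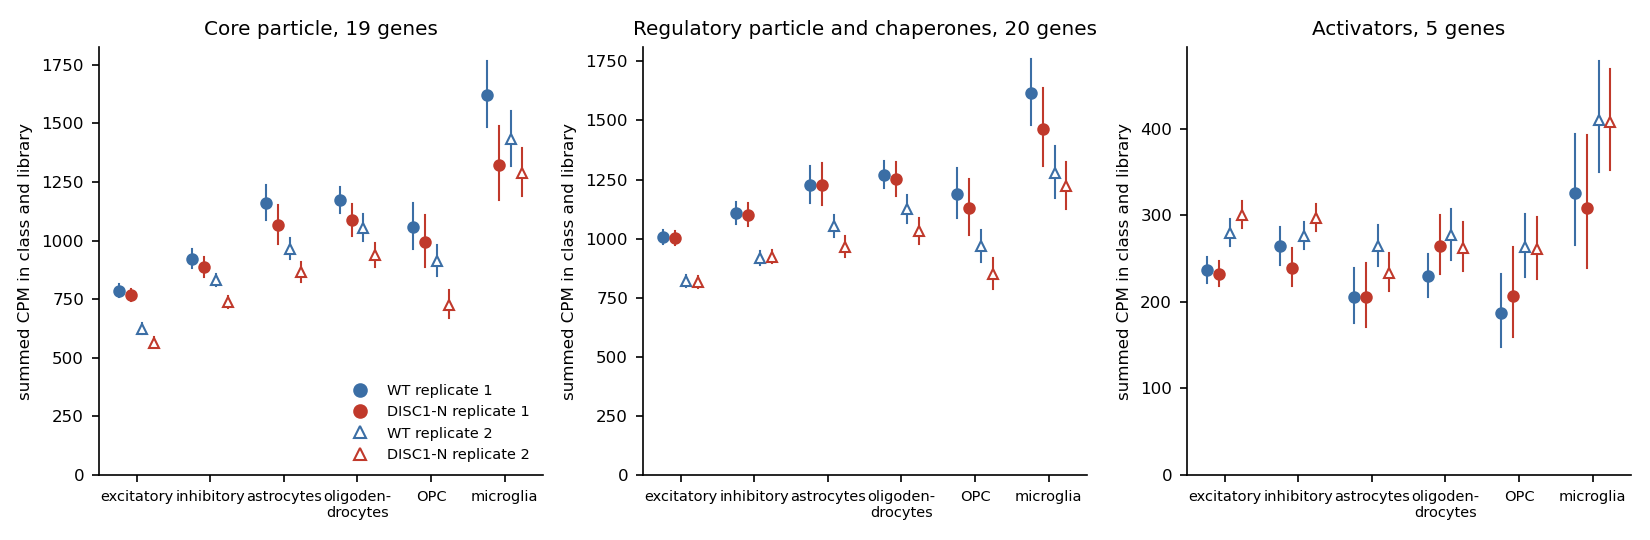
Summed CPM of the core particle, the regulatory particle with its chaperones, and the activators (y axes, each from 0), by class (x axis) and library; points are single libraries and bars are exact Poisson intervals for counting error only. In excitatory neurons the core sums ran from 565.2 to 786.2 CPM, with both replicate 1 libraries above both replicate 2 libraries.

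Within excitatory neurons the members whose levels per kilobase are given here ran from 3.14 to 68.0 CPM per kilobase of exon. The inducible and tissue-restricted genes are taken up later, and some of them lay lower. Levels are given as CPM per kilobase of exon, as a mean of the 4 libraries, with the plain CPM in parentheses. In 3' chemistry a transcript is counted once whatever its length, and introns can also give UMIs in nuclei; whether intronic reads were counted is not given in the sources used here. The order of the genes differs between the scales, and neither order was tested. Among the alpha-ring genes, Psma3 stood at 47.0 CPM per kb (183 CPM) and Psma4 at 11.3 CPM per kb (26.8 CPM). Psma3 shares its locus with 3110056K07Rik on the other strand. Psma6 had the lowest plain level of that ring, 24.3 CPM.

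In the beta ring, Psmb2, a structural subunit, stood at 68.0 CPM per kb (81.9 CPM). The 3 catalytic genes stood lower on both scales: Psmb5, the chymotrypsin-like subunit, at 23.1 CPM per kb (20.8 CPM), Psmb6, the caspase-like subunit, at 9.71 CPM per kb (18.2 CPM), and Psmb7, the trypsin-like subunit, at 9.10 CPM per kb (31.1 CPM).

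Of the regulatory ATPases, Psmc6 had the highest plain level, 75.3 CPM, and Psmc5 the lowest, 30.1 CPM. Per kilobase of exon their values were 21.5 and 21.6 CPM per kb. Psmd1, a scaffold subunit, stood at 12.6 CPM per kb (91.5 CPM) and Psmd2, its partner scaffold, at 4.24 CPM per kb (17.1 CPM). In the lid, the deubiquitinase gene Psmd14 stood at 46.8 CPM per kb (132 CPM) and Psmd8 at 5.04 CPM per kb (15.4 CPM). The assembly chaperone gene Psmd9 stood at 7.16 CPM per kb (51.9 CPM) and Psmd10 at 3.14 CPM per kb (4.62 CPM). Among activators, Psme4, a single-chain nuclear cap, stood at 27.2 CPM per kb (228 CPM) and Psme2 at 4.58 CPM per kb (8.08 CPM). Psme2 has a near-identical copy, Psme2b, listed at 0 UMIs in excitatory neurons, and how reads were split between them is not given.

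The inducible core genes Psmb8 and Psmb9 and the testis gene Psma8 had, of the 6 classes, their highest CPM in microglia and gave few UMIs in excitatory neurons. Psmb9, the inducible counterpart of Psmb6, gave 6, 1, 10 and 9 UMIs in microglia, which is 18.8, 4.68, 24.7 and 18.7 CPM. In excitatory neurons it gave 1, 1, 0 and 0 UMIs. Over the summed libraries, 26 UMIs in microglia against 2 in excitatory neurons is a ratio of 164.9 in CPM, with a 95% exact counting interval of 41.3 to 1434. The reference rests on 2 UMIs, so only the interval bounds the ratio. Psmb9 overlaps Tap1, an antigen transporter gene, on the other strand.

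Psmb8, the inducible counterpart of Psmb5, gave 3, 2, 5 and 8 UMIs in microglia and 3, 1, 2 and 0 in excitatory neurons, a ratio of 38.1 in CPM (95% interval 14.5 to 117.1). Psmb8 was also 10.3 times its excitatory CPM in OPC (3.12 to 35.9), but 6 of those 8 UMIs came from DISC1-N replicate 2. Psmb10, the inducible counterpart of Psmb7, was detected in neurons too. It stood at 46.9, 18.7, 39.6 and 27.0 CPM in microglia and at 11.5, 10.8, 8.85 and 8.44 CPM in excitatory neurons, so every microglial value lay above every excitatory one. Its ratio was 3.44 (2.45 to 4.76).

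Psma8, the alpha subunit of testis, gave 3, 4, 6 and 4 UMIs in microglia and 0, 0, 5 and 0 in excitatory neurons, a ratio of 43.1 (15.3 to 149.5). All 5 of the excitatory UMIs were in WT replicate 2. Psmb11, the thymus subunit, gave 1 UMI in excitatory neurons and 1 in astrocytes and none in microglia. These intervals cover counting error only. Endothelial nuclei, which were too few to test, gave 1, 3, 3 and 4 UMIs over the 5 inducible or tissue-restricted core genes, which is 42.5, 61.6, 100.4 and 74.8 CPM. Microglia had 84.4, 51.5, 91.5 and 70.7 CPM over the same genes, so the endothelial value was the higher one in 3 of 4 libraries, on few UMIs.

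Psme1 and Psme2 together form the interferon-inducible cap. Psme1 stood at 68.8, 74.9, 101.3 and 91.5 CPM there and at 13.1, 17.1, 13.3 and 14.4 CPM in excitatory neurons, a ratio of 6.00 (4.80 to 7.47), and every microglial value lay above every excitatory one. Psme2 stood at 25.0, 28.1, 39.6 and 20.8 CPM in microglia and at 7.82, 9.60, 4.20 and 10.7 CPM in excitatory neurons, a ratio of 3.48 (2.39 to 4.96). Psme3, the nuclear relative that forms a cap of its own, stood at 15.6, 14.0, 22.3 and 12.5 CPM in microglia and at 12.4, 14.0, 9.95 and 9.47 CPM in excitatory neurons, and these ranges overlapped.

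**Figure D2:**
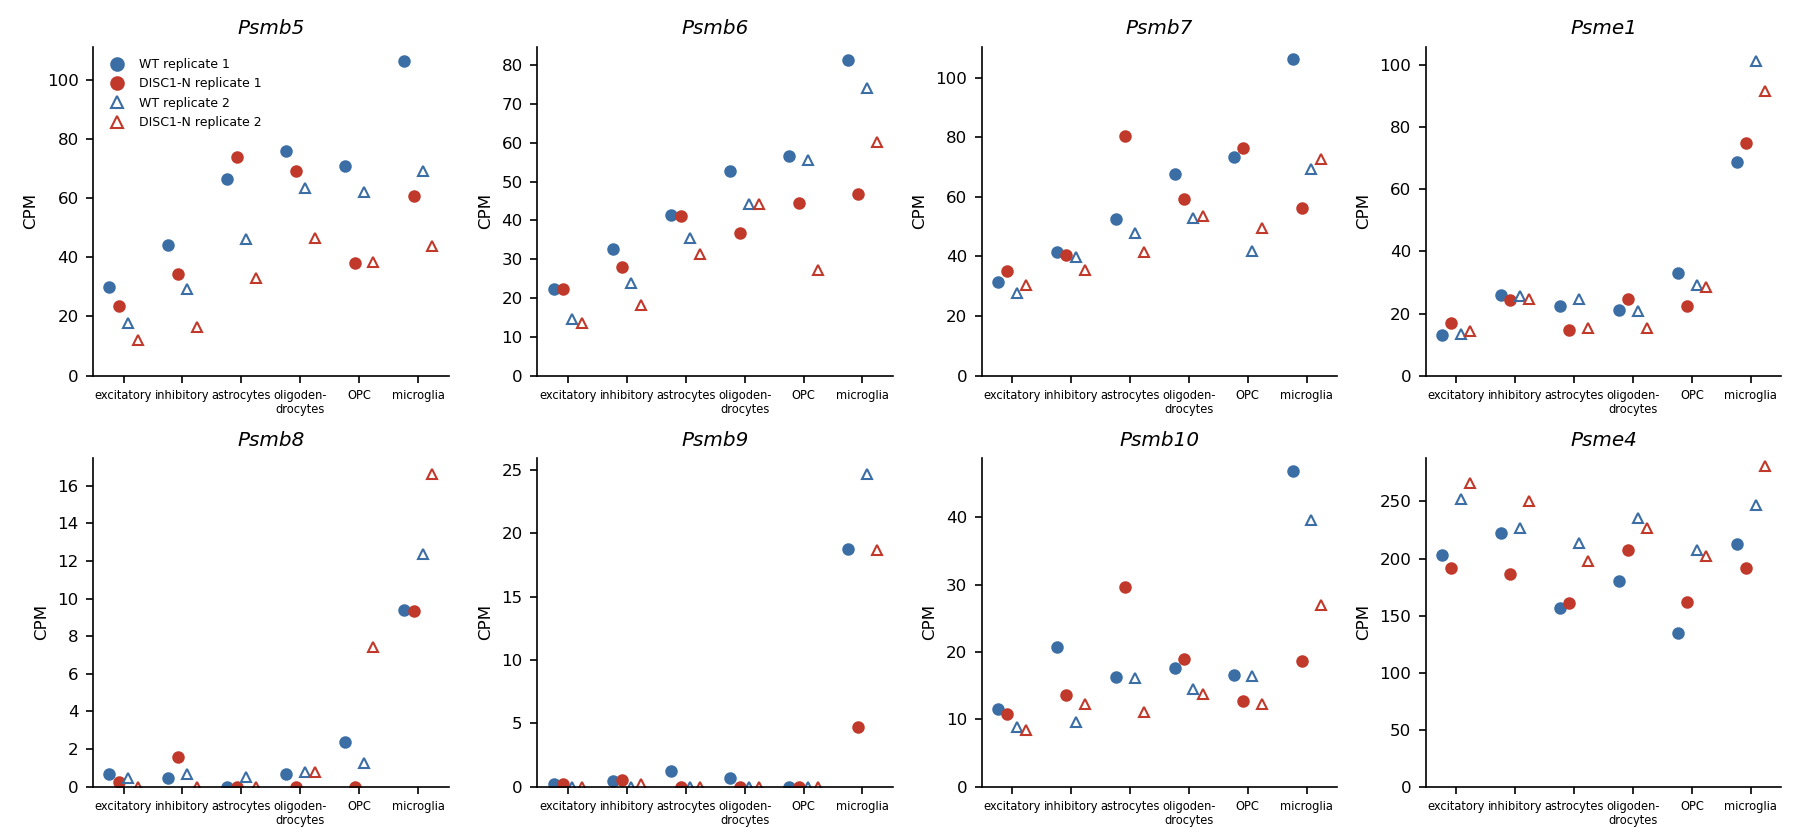
CPM (y axes from 0) of the 3 constitutive catalytic genes, their 3 inducible counterparts and the activators Psme1 and Psme4, by class (x axis, OPC being oligodendrocyte precursors); each point is 1 library. Psmb9 lay between 4.68 and 24.7 CPM in microglia and was near 0 in the other classes, while Psme4 lay between 191.9 and 265.9 CPM in excitatory neurons.

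Each class was compared with excitatory neurons across all genes, with the library as a block (edgeR's quasi-likelihood test, TMM factors, Benjamini-Hochberg adjusted p under 0.05 called). In each comparison at least 4 of the 7 beta-ring genes were called higher and none lower. In inhibitory neurons 9 of 39 members tested were higher and 1 was lower, against 24.6% of all genes higher and 22.6% lower. In astrocytes 16 of 39 were higher and 3 lower, against 32.7% and 32.9%. In oligodendrocytes 18 of 39 were higher and 1 lower, against 26.3% and 29%. In OPC 13 of 39 were higher and 6 lower, against 28.4% and 29.1%. In microglia 24 of 42 were higher and 3 lower, against 29.5% and 29.9%. The 3 additional members tested in microglia are Psma8, Psmb8 and Psmb9, which passed the count filter there through the microglial sums and so had to be higher; without them 21 of 39 were higher and 3 lower. The share of the 39 members called higher was close to that of all genes in inhibitory neurons and OPC, and above it in astrocytes, oligodendrocytes and microglia.

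The scaling moves these splits. TMM centres the genes near 0, whereas scaling by total counts puts the median of all genes at 0.17, 0.21, 0.16, 0.24 and 0.47 on the log2 scale in the same 5 comparisons. Under that scaling 22, 24, 24, 18 and 33 members were higher and 0, 2, 0, 2 and 0 lower, while 36.5%, 39.8%, 33.9%, 37.6% and 43.9% of all genes were higher and 16.8%, 26.9%, 22.4%, 22% and 19.9% lower. Relative to the median of all genes, the member medians were above it under both scalings. With TMM they were 0.11, 0.26, 0.46, 0.16 and 0.64, and with total counts 0.24, 0.47, 0.67, 0.39 and 1.14. The microglial medians and the count of 33 are over 42 members. Psma8, Psmb8 and Psmb9, which had to be higher there, are among them and raise these values.

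The counts by subcomplex follow, with TMM first; differences between subcomplexes were not tested. Of the 7 beta-ring genes, 4 were higher in inhibitory neurons, 6 in astrocytes, 7 in oligodendrocytes, 5 in OPC and 6 in microglia, and none was lower. Of the 20 regulatory genes, 0 were called in inhibitory neurons, 6 were higher and 2 lower in astrocytes, 6 higher and 1 lower in oligodendrocytes, 4 higher and 3 lower in OPC, and 8 higher and 2 lower in microglia. Under total-count scaling 6, 6, 7, 6 and 7 beta-ring genes and 6, 11, 10, 6 and 13 regulatory genes were higher in the same order of classes, and 1 regulatory gene was lower in astrocytes and 1 in OPC. With TMM the alpha ring had 3, 4, 5, 2 and 4 of 7 genes higher, and 2 lower in OPC (Psma1 and Psma3). Psmb1, Psmb4, Psmb5, Psmb6 and Psma4 were higher in 5 of 5 comparisons. The share of all genes that were higher in all 5 was not counted. The 5 comparisons share the excitatory sums.

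Psmb5 stood at 29.9, 23.6, 17.7 and 11.9 CPM in excitatory neurons and at 75.8, 69.2, 63.4 and 46.6 CPM in oligodendrocytes, with no overlap. Its log2 difference between them was 1.45 ± 0.15 (SE; edgeR adjusted p = 0.00039). In astrocytes it stood at 66.4, 74.0, 46.2 and 32.9 CPM (log2 difference 1.19 ± 0.13, edgeR adjusted p = 8.3e-05), and in OPC at 70.8, 38.2, 62.0 and 38.3 CPM (1.21 ± 0.18, edgeR adjusted p = 2.21e-06). In inhibitory neurons it stood at 44.3, 34.2, 29.4 and 16.5 CPM (0.45 ± 0.11, edgeR adjusted p = 0.00164). Every library had more Psmb5 in each of these classes than in its own excitatory neurons.

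Psmb6 stood at 22.3, 22.2, 14.6 and 13.6 CPM in excitatory neurons and at 81.3, 46.8, 74.2 and 60.3 CPM in microglia (log2 difference 1.44 ± 0.22, edgeR adjusted p = 8.84e-05). Psmb4 stood at 33.1, 28.1, 13.9 and 14.4 CPM in excitatory neurons and at 112.6, 98.2, 56.9 and 41.6 CPM in microglia, with a log2 difference of 1.30 ± 0.19. Psmb7 was higher in 4 of the 5 comparisons, all but inhibitory neurons, and its log2 difference in oligodendrocytes was 0.70 ± 0.13. Psmc5, an ATPase, was the regulatory gene of largest log2 difference in astrocytes, 1.04 ± 0.12 (edgeR adjusted p = 0.000112), at 85.1, 67.4, 71.4 and 53.0 CPM there against 35.4, 36.7, 28.8 and 19.4 CPM in excitatory neurons. Psmd2 followed at 0.97 ± 0.13 (edgeR adjusted p = 0.000234).

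In inhibitory neurons, the member of lowest p was Psme1, at 25.9, 24.2, 25.6 and 24.6 CPM (log2 difference 0.67 ± 0.13, edgeR adjusted p = 0.000128), where all 4 libraries lay above all 4 excitatory values. Psme2 was higher there by 0.62 ± 0.21 (edgeR adjusted p = 0.0216), and Psmb1 by 0.30 ± 0.08 (edgeR adjusted p = 0.00415). With a stricter gate 0 members were called in inhibitory neurons, and with DESeq2 1. The share of all genes called in those fits is not given here.

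Few members were lower than in excitatory neurons. Psme4 was lower with TMM in inhibitory neurons (log2 difference -0.18 ± 0.07), astrocytes (-0.53 ± 0.12), OPC (-0.60 ± 0.10) and microglia (-0.46 ± 0.18), and Psmd14 in astrocytes (-0.44 ± 0.11), oligodendrocytes (-0.42 ± 0.14), OPC (-0.49 ± 0.11) and microglia (-0.49 ± 0.17). Psmd9 was lower in astrocytes (-0.75 ± 0.16), OPC and microglia, and Psmc4 in OPC (-0.78 ± 0.19). Under total-count scaling only Psmd9 and Psme4 in astrocytes and Psmc4 and Psme4 in OPC were still called lower, and Psme4 in microglia changed sign to 0.04. Psmd14 stood at 128.2, 173.1, 118.7 and 118.6 CPM in microglia and at 142.1, 129.9, 125.9 and 130.5 CPM in excitatory neurons, which overlap.

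The spans of the genes are given beside these directions. The genes of Psmd14, Psme4 and Psmd9 span 88.7, 108.6 and 80.7 kb, while Psmb4, Psmb5 and Psmb6 span 2.87, 3.90 and 2.49 kb. The span of Psmd9 depends on the annotation. It is annotated from base 123169413 to 123250131 of chromosome 5, but its RefSeq promoter window ends at base 123228189, inside that span. Psmb1 and Psmb7, which were called higher in 5 and in 4 comparisons, span 24.7 and 56.0 kb. Of members under 10 kb, 8 of 16 were higher in astrocytes and 0 lower, against 43.9% and 17.4% of all genes under 10 kb. Their median log2 difference was 0.49, beside 0.40 over all genes under 10 kb. Of members of 10 kb or more, 8 of 23 were higher and 3 lower, against 29.6% and 37.2% of all such genes. Their median was 0.18, beside -0.11 over all such genes. In oligodendrocytes the short members had a median of 0.55 (all short genes 0.36) and the long ones 0.29 (all long genes -0.14), and in microglia 1.17 (0.54) and 0.21 (-0.16). The microglial medians are over 18 short and 24 long members. They include Psmb8 and Psmb9 among the short and Psma8 among the long ones, which had to be higher there. In OPC the short members had 0.52 (0.34) and the long ones -0.10 (-0.07). Of the 23 long members there, 5 were higher and 5 lower, against 26.15% and 32.75% of all long genes. In inhibitory neurons the medians were 0.27 (0.08) and 0.08 (0.02). Ribosomal protein transcripts, which come from short genes and are abundant in cytoplasm, moved the same way. They summed to 4497, 4398, 2806 and 2387 CPM in excitatory neurons and to 16357, 14202, 12963 and 11449 CPM in microglia. The part of gene length and of cytoplasmic RNA in the class differences was not tested.

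**Figure D3:**
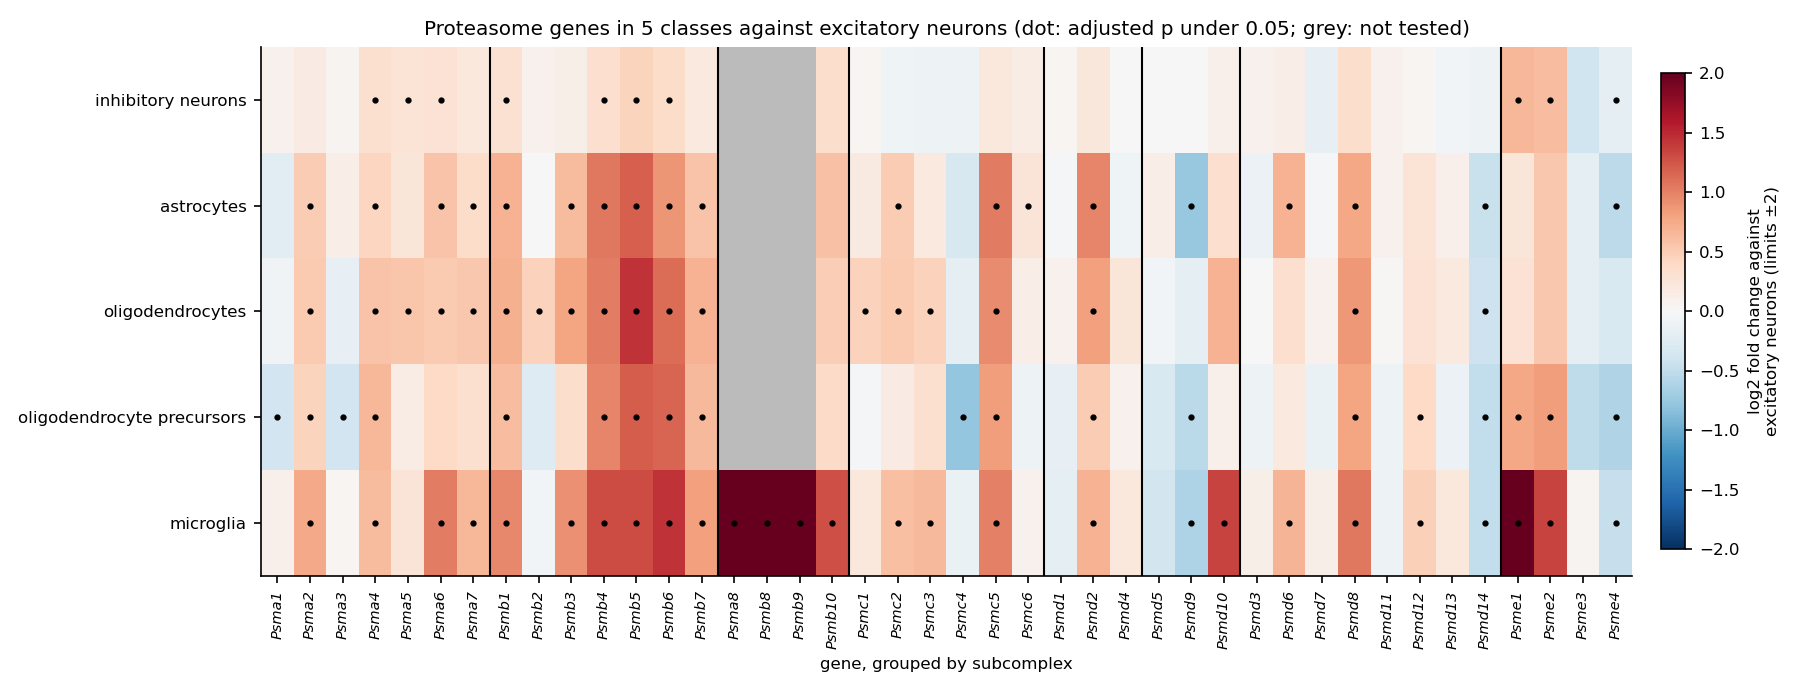
Log2 difference of each subunit gene (x axis, grouped by subcomplex) in 5 classes (rows) against excitatory neurons, from edgeR with TMM factors; colour runs from blue (lower) to red (higher) with limits at 2, dots mark an adjusted p under 0.05 and grey cells were not tested. The columns of Psmb4, Psmb5 and Psmb6 are red with dots in all 5 rows, and the Psmd14 and Psme4 columns are blue with dots in 4 rows under this scaling.

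Between genotypes, the summed proteasome genes were slightly lower in DISC1-N in nearly all classes, and no single gene passed the test. Over all 44 genes, the DISC1-N over WT ratio within replicate 1 and within replicate 2 was 0.988 and 0.975 in excitatory neurons, with counting intervals of 0.959 to 1.018 and 0.945 to 1.005. It was 0.970 and 0.967 in inhibitory neurons, 0.963 and 0.904 in astrocytes, and 0.973 and 0.909 in oligodendrocytes. It was 0.957 and 0.858 in OPC and 0.870 and 0.936 in microglia. All 12 of these ratios were below 1, while among the nuclei without a class the ratios were 1.004 and 0.954. The median ratio over all genes tested was below 1 as well in each class and replicate number. It was 0.993 and 0.986 in excitatory neurons, 0.981 and 0.989 in inhibitory neurons, and 0.985 and 0.988 in astrocytes. In oligodendrocytes it was 0.978 and 0.996, in OPC 0.989 and 0.977, and in microglia 0.962 and 0.992. A median over genes is an unlike measure to a ratio of sums. The median ratio over the members tested was 0.989 and 0.951 in excitatory neurons and 0.934 and 0.9535 in inhibitory neurons. It was 0.995 and 0.872 in astrocytes and 1 and 0.856 in oligodendrocytes. In OPC it was 0.933 and 0.866, and in microglia 0.895 and 0.90. In replicate 1 of astrocytes and oligodendrocytes the member median lay above that of all genes. With 2 libraries against 2, an exact two-sided permutation test of a sum cannot give a p below 1 in 3, so the sums carry no test.

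The sums were then taken by particle. Core genes summed to 786.2, 767.7, 624.7 and 565.2 CPM in excitatory neurons, ratios of 0.976 and 0.905. In the nuclei without a class the core ratios were 1.009 (0.992 to 1.026) and 0.920, so replicate 1 was not lower there. In inhibitory neurons they summed to 922.9, 885.7, 831.0 and 737.7 CPM, ratios of 0.960 (0.899 to 1.025) and 0.888 (0.848 to 0.930). Both DISC1-N values were below their WT partners, but the replicate 1 DISC1-N library lay above the replicate 2 WT library in both neuron classes, so the groups overlap.

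Astrocytes had core sums of 1162, 1067, 964.0 and 865.6 CPM, ratios of 0.918 and 0.898, and oligodendrocytes 1172, 1087, 1054 and 937.5 CPM, ratios of 0.927 and 0.890. OPC had 1058, 992.8, 912.8 and 727.4 CPM, ratios of 0.938 and 0.797 (0.714 to 0.890). Microglia had 1620, 1324, 1434 and 1290 CPM, ratios of 0.817 (0.705 to 0.946) and 0.90 (0.802 to 1.009), and there both WT libraries lay above both DISC1-N libraries. With other marker gates every core ratio of the 6 classes stayed below 1 except in OPC, where replicate 1 gave 1.247 with a stricter gate and 1.003 with a looser one.

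Regulatory genes summed to 1006, 1004, 820.4 and 815.0 CPM in excitatory neurons, ratios of 0.998 and 0.993, and to 1108, 1102, 917.2 and 923.5 CPM in inhibitory neurons, ratios of 0.994 and 1.007. In neurons these sums differed between genotypes by less than their counting error within each replicate number. In glia the regulatory sums were lower in DISC1-N in replicate 2 in each class, and in replicate 1 in oligodendrocytes, OPC and microglia. They were 1228, 1228, 1054 and 964.2 CPM in astrocytes and 1271, 1251, 1125 and 1031 CPM in oligodendrocytes. In OPC they were 1190, 1130, 967.2 and 850.9 CPM, and in microglia 1617, 1464, 1278 and 1223 CPM. Activator genes, most of whose UMIs are Psme4, summed to 236.3, 232.6, 279.4 and 300.5 CPM in excitatory neurons. They were lower in DISC1-N in replicate 1 (ratio 0.984) and higher in replicate 2 (1.076).

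The core share of all subunit UMIs put these sums on a scale that needs no library total. In excitatory neurons it was 38.8%, 38.3%, 36.2% and 33.6%. In inhibitory neurons it was 40.2%, 39.8%, 41.0% and 37.7%, and in microglia 45.5%, 42.8%, 45.9% and 44.2%. In astrocytes it was 44.8%, 42.7%, 42.2% and 41.9%, in oligodendrocytes 43.9%, 41.8%, 42.9% and 42.0%, and in OPC 43.4%, 42.6%, 42.6% and 39.6%. The share was lower in DISC1-N within both replicate numbers in these 6 classes. Elsewhere it was not: in nuclei without a class it was 38.6%, 38.8%, 38.1% and 36.7%, higher in DISC1-N in replicate 1. On few nuclei it was 42.5%, 44.5%, 50% and 47.4% in endothelial cells, higher in DISC1-N in replicate 1, and 44.8%, 37.2%, 43.2% and 43.5% in mural cells, higher in replicate 2. In the 6 classes the exact binomial 95% intervals of the partners overlapped except in replicate 2 of the neurons. In excitatory neurons of that replicate they were 35.2% to 37.3% in WT and 32.6% to 34.7% in DISC1-N, and in inhibitory neurons 40.0% to 42.1% and 36.7% to 38.7%. Nuclei of 1 library share their preparation, so the 6 classes are not 6 separate trials.

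**Figure D4:**
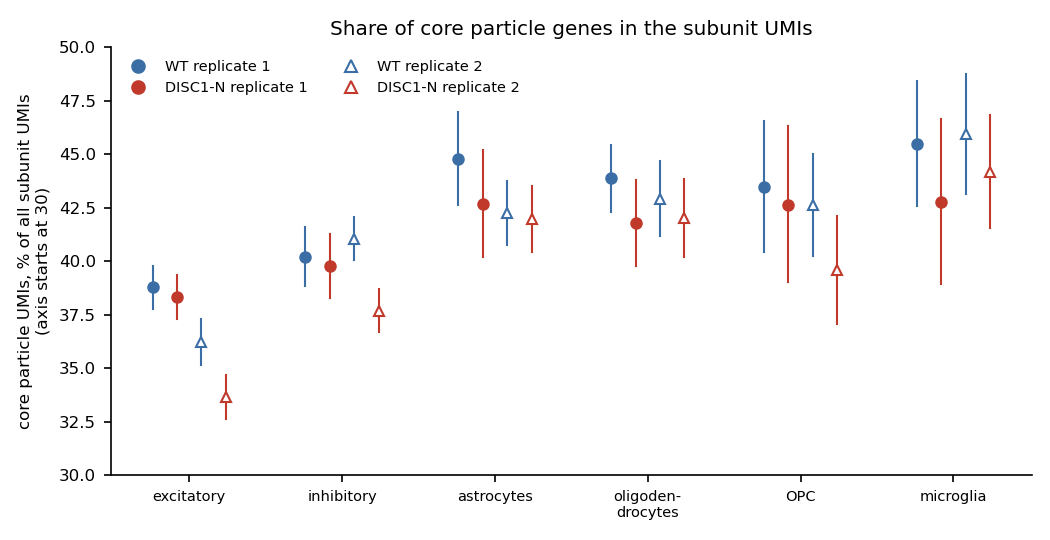
Core particle share of all subunit UMIs in percent (y axis, which starts at 30) by class (x axis) and library, with exact binomial 95% intervals for counting error. Each DISC1-N point lies below the WT point of its replicate number, from 38.8% against 38.3% in replicate 1 to 36.2% against 33.6% in replicate 2 in excitatory neurons.

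Other RNA also differed between the libraries. Ribosomal protein sums were lower in DISC1-N in both replicate numbers in all 6 classes, and in excitatory neurons the ratios were 0.978 and 0.851. Mitochondrially encoded transcripts in excitatory neurons summed to 1446, 676.6, 522.0 and 208.1 CPM. They were not lower in every class: in replicate 2 the DISC1-N over WT ratio was 1.125 in astrocytes and 1.34 in microglia. The share of UMIs from genes under 10 kb was 16.2%, 18%, 11% and 11.3% in excitatory neurons, and it was lower in DISC1-N in both replicate numbers in 1 of the 6 classes. The part of RNA carried over from cytoplasm in the lower core sums was not tested.

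Gene by gene, no member was called between genotypes in any class. In edgeR's quasi-likelihood fit without the replicate number, 0 of 39 members were called in excitatory neurons, inhibitory neurons, astrocytes and oligodendrocytes, 0 of 35 in OPC and 0 of 36 in microglia, and 0% of all genes were called. At an unadjusted p under 0.05 there were 1, 0, 0, 0, 2 and 0 members in these classes. Here and below, the share of all genes at an unadjusted p is not given, so such counts are not read as an excess. DESeq2 called 0 members in each class and limma-voom 0, with 2, 0, 0, 0, 4 and 0 at an unadjusted p under 0.05. The 5 members not tested in excitatory neurons were Psma8, Psmb8, Psmb9, Psmb11 and Psme2b, which failed the count filter.

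In the fit blocked on the replicate number, edgeR again called 0 members in every class, against 0.559% of all genes in excitatory neurons, 0.708% in inhibitory neurons, 0.197% in astrocytes, 0.1% in oligodendrocytes, 0.0923% in OPC and 0.067% in microglia. At an unadjusted p under 0.05 there were 4, 2, 1, 2, 5 and 1 members. The shares of all genes above are for adjusted p and cannot be set against these counts. The blocked median over the core genes was -0.05, -0.16, -0.10, -0.07, -0.25 and -0.22 in excitatory neurons, inhibitory neurons, astrocytes, oligodendrocytes, OPC and microglia. Over the regulatory genes it was -0.02, 0.03, -0.05, -0.04, -0.09 and -0.10. A test of whether the genotype difference was unlike that in excitatory neurons called 0 members in each of the other 5 classes (edgeR interaction, adjusted p = 1.0 for each member, with 0, 1, 0, 1 and 0 members at an unadjusted p under 0.05).

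The count of members that were lower in DISC1-N within both replicate numbers was near that of all genes in some classes and above it in others. In excitatory neurons 12 of 39 were lower in both and 7 higher in both, against 28.7% and 23.4% of all genes tested. In inhibitory neurons 18 of 39 were lower and 9 higher, against 30.4% and 23.5%, and in astrocytes 14 and 5 of 39, against 30.4% and 23.2%. In oligodendrocytes 10 and 2 of 39 were so, against 27.5% and 23.1%, in OPC 16 and 5 of 35, against 27.7% and 23.5%, and in microglia 13 and 3 of 36, against 26.8% and 20.8%. The members lower in both in 5 of 6 classes were Psmb4, Psmb5, Psmb6 and Psmc5, and none of these 4 was higher in both in the sixth. The share of all genes that reach 5 of 6 classes was not counted. Psmd11, a lid gene, was higher in both in 4 of 6 classes. In the same order of classes, 2, 7, 6, 6, 7 and 10 members were lower in DISC1-N without overlap of the groups. Those higher without overlap were 4, 4, 1, 1, 1 and 0. The share of all genes without overlap is not given here, so non-overlap is not read as a difference below.

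Psmb5 gave the lowest blocked p of any member in inhibitory neurons. Its CPM there, 44.3, 34.2, 29.4 and 16.5, was lower in DISC1-N in each replicate number, and the replicate 1 DISC1-N value lay above the replicate 2 WT value. The blocked log2 difference was -0.61 ± 0.18 (SE; edgeR adjusted p = 0.0662), and -0.58 ± 0.33 without the block (edgeR adjusted p = 0.999). Without DISC1-N replicate 2 the unblocked difference was -0.10, and without DISC1-N replicate 1 it was -1.07, neither of them called. With a gate that accepts 55% of marker UMIs, an alternative added after the data were examined, the blocked difference was -0.64 and passed the test (edgeR adjusted p = 0.00972). The share of all genes called in that fit is not given here, so this call cannot be set against it.

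In excitatory neurons Psmb5 had a blocked log2 difference of -0.42 ± 0.18 (edgeR adjusted p = 0.534). Unblocked it was -0.41. Leaving out WT replicate 1 gave -0.05, DISC1-N replicate 2 gave -0.04, DISC1-N replicate 1 gave -0.91 and WT replicate 2 gave -0.70, none of them called. In OPC, where both WT values (70.8 and 62.0 CPM) lay above both DISC1-N values (38.2 and 38.3 CPM), it was -0.74 ± 0.29 (edgeR adjusted p = 0.875). In microglia, where the WT values of 106.3 and 69.2 CPM lay above the DISC1-N values of 60.8 and 43.7 CPM, it was -0.70 ± 0.36. Astrocytes were the exception, with a higher DISC1-N value in replicate 1 (74.0 against 66.4 CPM) and a lower one in replicate 2 (32.9 against 46.2 CPM).

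The other catalytic genes were read in the same classes, and differences between the genes were not tested. In excitatory neurons Psmb6 stood at 22.3, 22.2, 14.6 and 13.6 CPM, with a blocked log2 difference of -0.03 ± 0.18, and Psmb7 at 31.5, 35.1, 27.7 and 30.3 CPM, higher in DISC1-N in both replicate numbers (0.16 ± 0.15). Neither passed the test. In inhibitory neurons the blocked differences were -0.31 ± 0.19 for Psmb6 and -0.11 ± 0.15 for Psmb7, and the inducible Psmb10 had -0.04 ± 0.26.

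The other members of lowest blocked p in excitatory neurons were Psme2, Psma4 and Psmd10. Psme2 stood at 7.82, 9.60, 4.20 and 10.7 CPM, and its blocked log2 difference was 0.79 ± 0.28 (edgeR adjusted p = 0.304). Psma4 stood at 35.4, 27.2, 26.5 and 18.1 CPM (-0.44 ± 0.16, edgeR adjusted p = 0.307). Psmd10, an assembly chaperone also known as gankyrin, stood at 6.44, 4.21, 5.97 and 1.85 CPM, from 28, 18, 27 and 9 UMIs (-1.05 ± 0.38, edgeR adjusted p = 0.326). The groups did not overlap for Psme2 and Psmd10, and they did for Psma4.

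In inhibitory neurons Psmd8, a lid gene, stood at 28.3, 22.1, 21.1 and 13.8 CPM (blocked log2 difference -0.49 ± 0.21, edgeR adjusted p = 0.448). Psmb2 stood at 79.2, 104.2, 95.4 and 100 CPM (0.21 ± 0.11, edgeR adjusted p = 0.655), and Psmb1 had -0.22 ± 0.13 (edgeR adjusted p = 0.706). Both DISC1-N values of Psmb2 lay above both WT values, while Psmb1 and Psmb5 were lower in DISC1-N.

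In astrocytes the members of lowest blocked p were Psma1, Psme1, Psmc5 and Psmd10. Psma1 stood at 106.4, 62.5, 59.6 and 50.9 CPM (-0.42 ± 0.19, edgeR adjusted p = 0.626), and Psme1 at 22.5, 14.8, 24.7 and 15.4 CPM (-0.64 ± 0.31, edgeR adjusted p = 0.676), with both WT values above both DISC1-N values. Psmc5 had -0.37 ± 0.19 and Psmd10 -1.06 ± 0.54. In oligodendrocytes Psma2 stood at 94.0, 71.4, 91.5 and 67.2 CPM without overlap (-0.40 ± 0.18, edgeR adjusted p = 0.82), and Psmb4, Psmd6 and Psmc2 had blocked differences of -0.45 ± 0.22, -0.47 ± 0.25 and -0.39 ± 0.21. In OPC, Psmc3, an ATPase gene, stood at 73.2, 41.4, 67.0 and 32.1 CPM (-0.95 ± 0.30, edgeR adjusted p = 0.392). None of these passed the test.

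**Figure D5:**
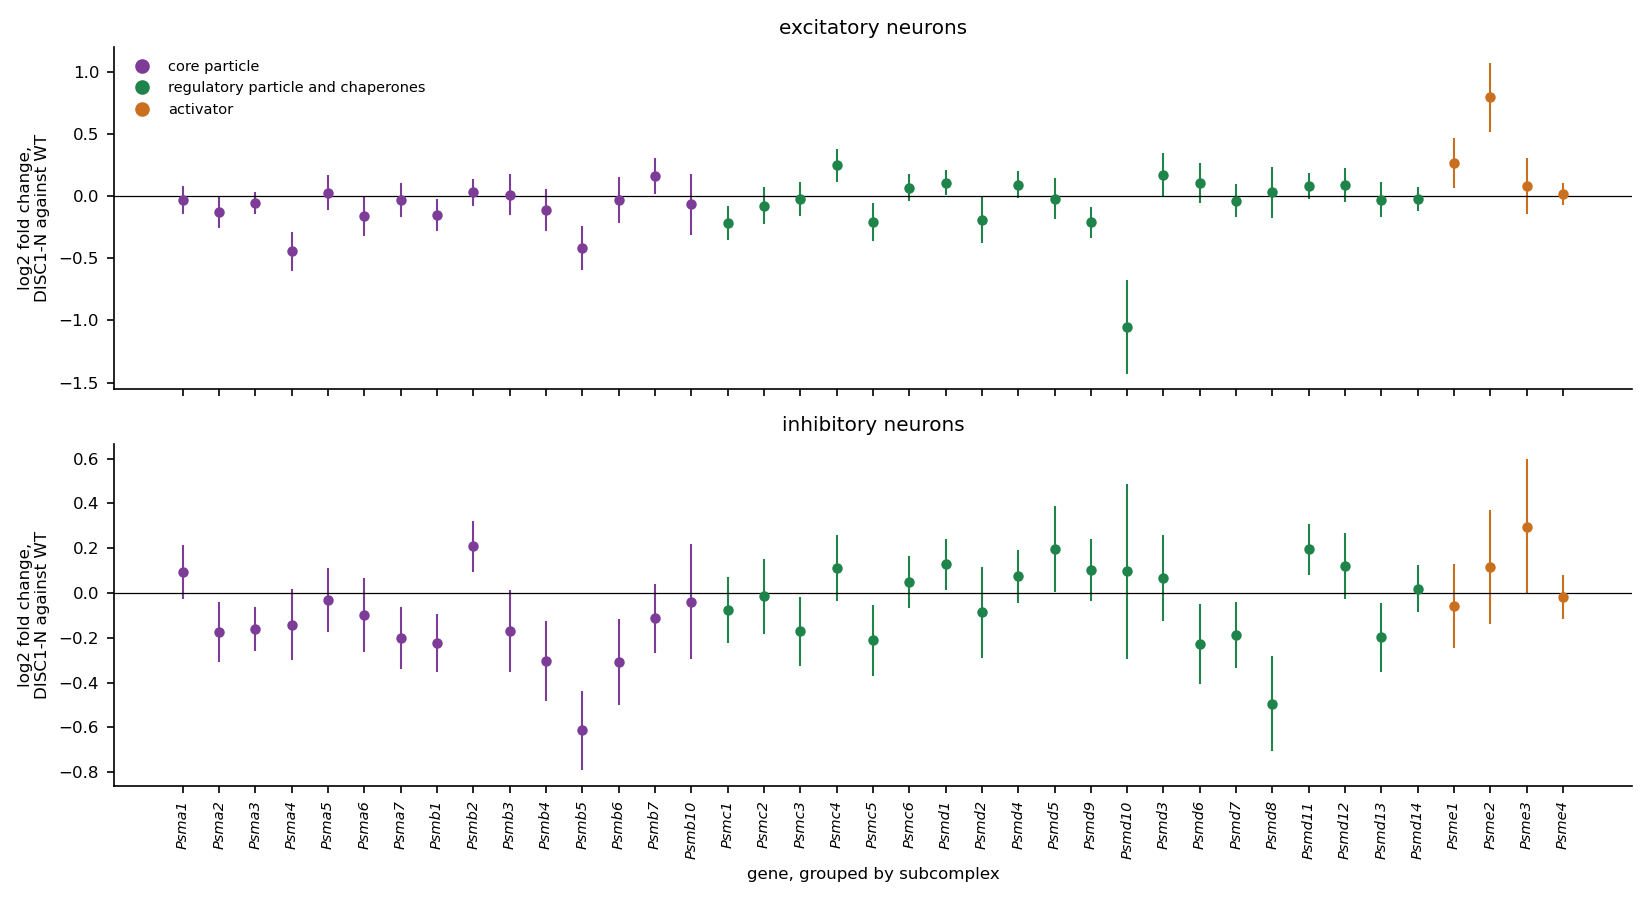
Log2 difference of DISC1-N against WT with the replicate block for each tested subunit gene (x axis, by subcomplex) in excitatory (top) and inhibitory neurons (bottom); points are edgeR estimates and bars are 1 SE, and the y axes differ. Psmb5 lies at -0.42 in excitatory and -0.61 in inhibitory neurons, Psme2 at 0.79 in excitatory neurons, and no point passed the test.

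More members were called between replicate numbers than between genotypes. In excitatory neurons, 12 of 39 members were lower and 2 higher in replicate 2 than in replicate 1 (edgeR, genotype in the fit), against 11.1% of all genes lower and 11.5% higher. Their median log2 difference was -0.26, beside -0.01 over all genes. Psmb4 had the largest fall, -0.999 ± 0.17, followed by Psmd9 (-0.88 ± 0.13), Psmc6 (-0.77 ± 0.11) and Psmb5 (-0.75 ± 0.18). Psme4 was higher by 0.50 ± 0.09 and Psmd11 by 0.30 ± 0.11. Short members had a median of -0.39, beside -0.29 over all genes under 10 kb. Of these members 6 of 16 were lower and 0 higher, against 23.1% and 3.68% of all genes under 10 kb. Members of 10 kb or more had -0.18, beside 0.04 over all such genes. Of these members 6 of 23 were lower and 2 higher, against 7.64% and 13.75% of all such genes. Software version and any other difference between the replicate numbers cannot be told apart here.

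Of 38 other ubiquitin-proteasome genes looked for by name, 36 were found: assembly factors, shuttle proteins, the unfoldase Vcp, proteasome-bound deubiquitinases, ubiquitin genes and E1 enzymes, and the regulators Nfe2l1 and Nfe2l2. Without the block 0 of 36 were called between genotypes in excitatory neurons (edgeR; 0 at an unadjusted p under 0.05). With the block 1 was lower in excitatory neurons and 1 in inhibitory neurons, Ubb in both, against 0.559% and 0.708% of all genes called in the same fits. Ubb encodes polyubiquitin. It stood at 279.3, 247.9, 203.7 and 123.7 CPM in excitatory neurons (blocked log2 difference -0.42 ± 0.09, edgeR adjusted p = 0.00796). In inhibitory neurons it stood at 428.9, 360.5, 326.7 and 219.0 CPM (-0.41 ± 0.09, edgeR adjusted p = 0.0057). In both classes it was lower within each replicate number and the groups overlapped.

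The next pathway genes by p in excitatory neurons were Txnl1, a thioredoxin-like protein bound to the regulatory particle, and Nfe2l2. Txnl1 stood at 84.1, 98.3, 71.7 and 78.8 CPM (0.20 ± 0.11, edgeR adjusted p = 0.741). Nfe2l2 gave 19, 12, 21 and 12 UMIs (-0.75 ± 0.41, edgeR adjusted p = 0.756), with both WT libraries above both DISC1-N libraries at low counts.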

How the data were processed

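The authors deposited whole-number UMI counts per gene and barcode, not normalized, made with Cell Ranger on mm10. The version is 7.0.0 per the submitters' processing notes, and 7.0.0 or 6.0.2 per the file headers. Intron counting and nucleus calling were not given in the sources used here.

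Nuclei needed 500 genes and no more than 5% mitochondrial UMIs (26850 of 27313 barcodes passed), and 1518 putative doublets (Scrublet in scanpy 1.11.5, 0.8% per 1000 nuclei) were removed. UMIs were added up over each class in each library and tested with edgeR 4.0.16 in R 4.3.3 (TMM factors, filterByExpr minimum count 10, at least 20 nuclei per library, adjusted p under 0.05). DESeq2 1.42.0 and voom of limma 3.58.1 were alternatives, and the scripts were tested on simulated data. An SE is the log2 difference divided by the root of the F statistic. Ratios of summed counts carry exact 95% intervals for counting error only.

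Same-number libraries deviated together across genes (correlation 0.37 to 0.69, 2 pairs) and share a software version; a blocked fit leaves 1 residual degree of freedom.

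Members and lists were chosen with earlier results of these data known. Named genes are the catalytic, inducible, tissue-restricted and activator genes, up to 6 called members of lowest p per comparison, the 4 of lowest blocked p in 4 classes, the extremes of each subcomplex by CPM and 3 pathway genes. Psmd11, Psmc3, Psmc4 and the members repeated across comparisons were named after their values were seen.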

Additional observations from a re-analysis of the deposited data

How the results depend on the processing

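Of the counts, medians and sums recomputed under alternatives, 216 stayed within a tolerance and 47 moved beyond it. A count could change by a fixed fold, and a median or sum by the standard deviation of the replicate ratios on the log2 scale. Astrocyte calls against excitatory neurons thus stayed, at 16 higher and 3 lower with TMM and 24 and 2 with total counts. Of the values of single named genes, 1474 stayed, either called both times or called in neither and moving by no more than 1 SE. Another 20 passed the threshold only under the alternative, and 43 no longer passed it. A further 75 that were called in neither moved by more than 1 SE. The 1 that had been called and changed direction was Psme4 in microglia against excitatory neurons. Its value was 0.035 under total-count scaling (edgeR adjusted p = 0.885). Directions of values that were not called were not counted: the Psmb5 genotype difference in astrocytes was 0.12 when WT replicate 1 was left out and 0.40 for DISC1-N replicate 2, but -0.67 for DISC1-N replicate 1 and -0.32 for WT replicate 2. With the replicate block 0 members were called between genotypes in each of the 6 classes with the original gate, and 1 (Psmb5, inhibitory neurons) with the looser gate and the replicate block together. The share of all genes called with that looser gate is not given here.

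Members called against excitatory neurons in inhibitory neurons (10) became 1 with DESeq2, 0 with the stricter gate, 6 with sums thinned to equal depth and 22 with total-count scaling. The stricter gate gave 10 in astrocytes (from 19), 3 in oligodendrocyte precursors (from 19) and 15 in microglia (from 27), with fewer nuclei, and thinning gave 8 in precursors and 9 in microglia, with fewer UMIs. Leaving out 1 library gave 10 to 17 in oligodendrocytes (from 19), the lowest without WT replicate 2. Except for total-count scaling, the share of all genes called in these fits is not given here. A fall over all genes therefore cannot be told apart from a fall in the members.

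The median genotype difference of the members ranged, with 1 library left out, from -0.16 to 0.11 in excitatory neurons, -0.15 to 0.063 in inhibitory neurons, -0.20 to 0.092 in astrocytes, -0.20 to -0.052 in oligodendrocytes, -0.30 to 0.018 in precursors and -0.28 to -0.067 in microglia. The stricter gate gave 0.043 in inhibitory neurons and 0.074 in precursors, and thinning -0.085 and -0.061. The looser gate gave -0.068 in precursors, -0.058 with the block. In microglia it was -0.11 with DESeq2 size factors, -0.15 with limma-voom, -0.067 with the stricter gate, -0.10 with doublets kept, -0.091 thinned, -0.026 with the looser gate with or without the block, and -0.14 with total-count scaling. The mean log2 ratio of the core sum moved to -0.11 in astrocytes and -0.065 in microglia with the looser gate, and to -0.21 in oligodendrocytes and 0.0017 in precursors with the stricter gate. The cause was not tested.

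In microglia Psmb8 and Psmb9 rest on at most 10 UMIs per library; endothelial and mural nuclei gave fewer and were not tested.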

Other observations

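The other genes of the ubiquitin-proteasome pathway were compared between the same classes. Of the 36 found, 10 were higher and 3 lower in inhibitory neurons than in excitatory neurons (edgeR, TMM factors), 14 and 9 in astrocytes, 13 and 4 in oligodendrocytes and 10 and 9 in their precursors. Microglia had 15 higher and 5 lower. In the same order, 24.6%, 32.7%, 26.3%, 28.4% and 29.5% of all genes were higher and 22.6%, 32.9%, 29%, 29.1% and 29.9% lower, so 10 of 36 in inhibitory neurons and precursors is near the share of all genes. How many of all genes were called higher in all 5 comparisons was not counted. Pomp, the chaperone that matures the core particle, was called higher in each of them. It stood at 28.7, 25.7, 21.5 and 17.1 CPM in excitatory neurons and at 131.3, 107.6, 86.5 and 97.8 CPM in microglia, a log2 difference of 1.71 ± 0.17 (edgeR adjusted p = 2.25e-06), and the 2 ranges were far apart.

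The 2 transcription factor genes of the pathway list had these values. Nfe2l2 stood at 47.6, 60.8, 55.8 and 57.8 CPM in astrocytes and at 90.7, 60.8, 175.5 and 168.5 CPM in microglia, against 4.37, 2.81, 4.65 and 2.47 CPM in excitatory neurons. The log2 differences were 3.74 ± 0.22 and 4.62 ± 0.26 (edgeR adjusted p = 3.35e-06 and 8.01e-09). Nfe2l1 stood at 39.1, 40.5, 22.3 and 19.4 CPM in excitatory neurons and at 51.3, 42.7, 36.5 and 23.9 CPM in astrocytes, a log2 difference of 0.19 ± 0.13 (edgeR adjusted p = 0.245). Its call was in inhibitory neurons, 0.40 ± 0.09 (edgeR adjusted p = 0.00127). Pomp, Nfe2l1 and Nfe2l2 were picked for this description after their values were seen.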
